A study of Mus musculus with 49 samples.

Results

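Patchseq is single-cell RNA sequencing of a neuron whose content is drawn up through a patch pipette. It was used here on 49 neurons of the primary somatosensory cortex of wild type CD1 mice, labelled with FlashTag (FT), a dye that marks cells dividing at the ventricle, on embryonic day E13.5 and collected at postnatal day 7 (P7). All 49 cells are of 1 condition, with no other genotype, treatment or age, and cells were chosen in the slice by FT brightness. The genes described are Gad1, Gad2, Slc32a1, Dlx1, Lhx6 and Sst, 6 of the 9020 genes in the table, chosen by name as genes of GABAergic and Sst interneurons. All 6 are listed, and each listed gene reaches 100 RPM (the reads of a gene scaled to a fixed total per cell) in at least 2 cells. The cells come from 6 independent experiments per the study's methods, but the labels name neither the experiment nor the animal of a cell, so the 49 cells are 1 sample. Cells of 1 animal may not be independent. Shares of cells carry exact Clopper-Pearson intervals (95%) that cover counting error only, and no test between cells was made.

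Inhibitory neurons of the cortex make GABA from glutamate with the glutamate decarboxylases GAD67 and GAD65, the products of Gad1 and Gad2, and load it into synaptic vesicles with the transporter VGAT, the product of Slc32a1. They are born in the ganglionic eminences of the ventral forebrain, where Dlx1 is a transcription factor of most GABAergic precursors and Lhx6 one of those from the medial eminence, and they reach the cortex by tangential migration. Somatostatin, the product of Sst, is a peptide that marks a large class of Lhx6-lineage interneurons. Pyramidal neurons, which are born from the apical progenitors (APs) of the cortex itself, use glutamate and are marked by genes such as Slc17a7, Neurod2, Neurod6 and Tbr1.

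The cells were sequenced in 5 library pools, of 12, 9, 9, 9 and 10 cells, and cells are named below by their number and pool (IL08_Pool4). The recovered totals lay between 209850 and 35342325 reads (median 1240101), so that 1 read stood for between 0.0283 and 4.77 RPM. The median total was 9870201 reads in pool 1 and between 814366 and 1409643 in the other pools. The 3′ reads are not scaled to gene length, and levels are therefore compared between cells for 1 gene, not between genes. The neuronal genes Snap25, Syt1, Stmn2, Map2 and Tubb3 reached 10 RPM in 49 of 49 cells.

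Of the 6 genes, 5 lie on chromosome 2 (GENCODE M21, GRCm38). These are Gad1 (chr2:70553072-70602014, + strand), Gad2 (chr2:22622205-22693874, +), Slc32a1 (chr2:158610767-158615748, +), Dlx1 (chr2:71528113-71533981, +) and Lhx6 (chr2:36081953-36105408, −), and Sst lies at chr16:23889573-23890958 on the − strand. Antisense genes overlap Gad1 (Gad1os), Slc32a1 (Gm14205) and Dlx1 (Dlx1as). None of these 3 is in the table, and whether counting used the strand is not given in the sources used here, so reads of Dlx1 and of its antisense partner cannot be told apart.

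Short stretches before the RefSeq starts of Sst and Gad1 are shown, because Sst is the member whose pattern across cells was least like the others, and Gad1 is given for comparison with a gene of GABA synthesis. Capitals mark TGACGTCA, the cAMP response element, and TTTAAAA in Sst, and TTTATA, the reverse complement of TATAAA, in Gad1.
Sst (chr16:23890866-23890895, − strand): ggcTGACGTCAgagagagagTTTAAAAagg
Gad1 (chr2:70561976-70562005, + strand): ccgtgagctggaTTTATAatcgccctacaa
In RefSeq's GRCm38.p6 promoters of 300 bases (250 before and 50 after each start), TGACGTCA is held by 1.79% of 32851 windows on either strand and, of the 8 windows of the members, only by that of Sst. TTTAAAA is held by 8.74% of all windows and also only by Sst among the members. TATAAA is held by 13.6% of all windows and, among the members, by that of Gad1 and 1 of Lhx6. TAATTA, a core letter sequence of homeodomain factors, is held by 5.29% of all windows and by none of the members' 8. Both stretches lie inside the genes as GENCODE draws them, which start before the RefSeq starts used here. All motifs were searched on both strands, and none of the 4 contains another. These matches describe the letters only.

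Each of the 6 genes was near 0 in most of the 49 cells and over 100 RPM in between 2 and 8. At a limit of 10 RPM, Gad1, Slc32a1 and Sst were each held by 14 cells (28.6%, interval 16.6 to 43.3%), Gad2 by 11 (22.4%, 11.8 to 36.6%), Dlx1 by 8 (16.3%, 7.32 to 29.7%) and Lhx6 by 6 (12.2%, 4.63 to 24.8%). The median over all 9020 listed genes was 20 cells at this limit. At least 1 member reached it in 30 cells and none in 19, while 13 cells held 1 member, 8 held 2, 3 held 3, 3 held 4, 1 held 5 and 2 held all 6. The counts depend on the limit, since 1 read or more was found in 33 cells for Gad1, 34 for Gad2, 36 for Slc32a1, 25 for Dlx1, 16 for Lhx6 and 35 for Sst, and 100 RPM in 8, 8, 6, 7, 2 and 7 cells.

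**Figure D1:**
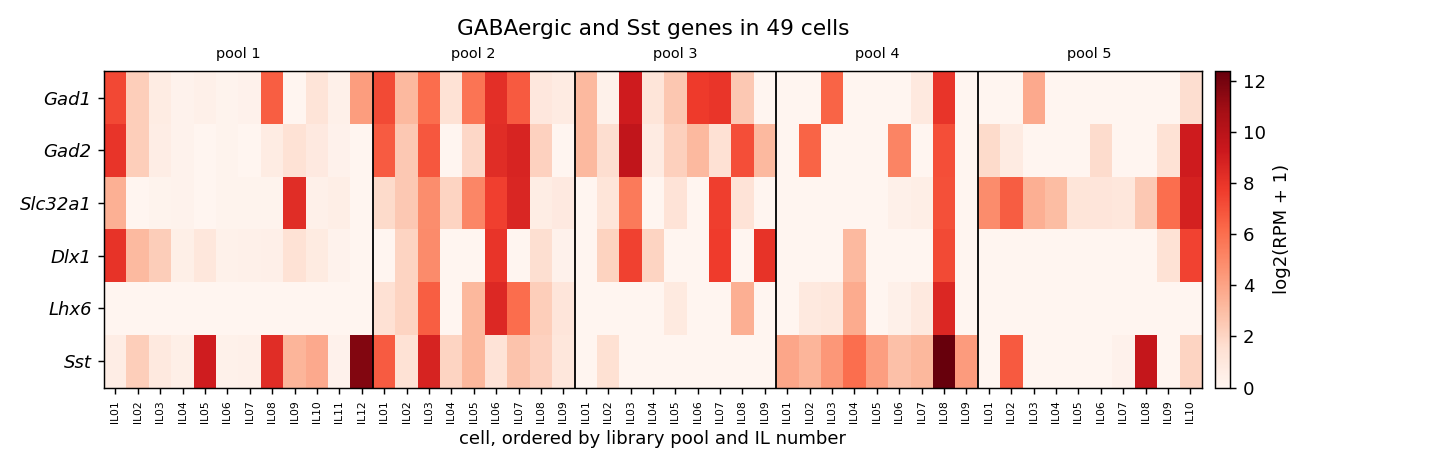
Level of each of the 6 genes, as log2(RPM + 1) in colour, in each of the 49 cells, ordered by library pool and by number within the pool. The 2 cells with all 6 genes at 10 RPM or more are IL03_Pool2 and IL08_Pool4, Lhx6 has no read in pools 1 and 5, and Sst has reads in every cell of pools 1, 2 and 4 and in 1 cell of pool 3.

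Gad1 had a median of 0.830 RPM over the 49 cells and a highest value of 559 RPM, in IL03_Pool3. The next cells were IL06_Pool2 at 297 RPM, IL08_Pool4 at 250 RPM, IL07_Pool3 at 249 RPM and IL06_Pool3 at 213 RPM. Gad2 had a median of 1.61 RPM and a highest value of 807 RPM, in the same cell as Gad1. It was 552 RPM in IL10_Pool5, 419 RPM in IL07_Pool2, 324 RPM in IL06_Pool2 and 255 RPM in IL01_Pool1. Both GAD genes were thus high in IL03_Pool3 and IL06_Pool2, but neither gene followed the other in every cell. At 10 RPM, 7 cells held both, 7 held Gad1 without Gad2 and 4 held Gad2 without Gad1. Of the discordant cells, IL07_Pool3 had 289 reads of Gad1 and 2 of Gad2, and IL10_Pool5 had 2 reads of Gad1 and 525 of Gad2. Both numbers of each cell come from 1 library, and so from the same depth.

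Slc32a1 was highest in IL10_Pool5 (462 RPM) and IL07_Pool2 (389 RPM), with 324 RPM in IL09_Pool1, 195 RPM in IL07_Pool3, 185 RPM in IL06_Pool2 and 130 RPM in IL08_Pool4. Of its 14 cells, 10 also held Gad1 or Gad2 and 4 held neither. The 4 are IL09_Pool1, IL02_Pool5 (96.2 RPM), IL09_Pool5 (64.5 RPM) and IL01_Pool5 (28.2 RPM), so 3 of them are of pool 5, where each of the 10 cells had a read of Slc32a1, as did each of the 9 of pool 2. IL09_Pool1 had 401 reads of Slc32a1 beside 0 of Gad1 and 2 of Gad2, and it also held the excitatory genes Slc17a7 (397 RPM) and Neurod2 (1343 RPM). In the other direction, 8 of the 18 cells with Gad1 or Gad2 were under 10 RPM for Slc32a1.

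Dlx1 was held by few cells, and at like levels: 267 RPM in IL01_Pool1, 266 RPM in IL09_Pool3, 250 RPM in IL06_Pool2, 205 RPM in IL07_Pool3, 179 RPM in IL03_Pool3, 176 RPM in IL10_Pool5 and 147 RPM in IL08_Pool4, then 28.7 RPM in IL03_Pool2. The 3 cells with the most Dlx1 made up 50.3% of its summed RPM. Of the 8 cells, 7 held Gad1 or Gad2. The remaining cell, IL09_Pool3, had 168 reads of Dlx1 with 5 of Gad2 and none of Gad1, Slc32a1, Lhx6 or Sst, and Slc17a7 was at 273 RPM in it.

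Lhx6 was the sparsest member, with 0 reads in 33 cells. It was 383 RPM in IL08_Pool4, 365 RPM in IL06_Pool2, 91.3 RPM in IL03_Pool2 and 65.3 RPM in IL07_Pool2, and just over the limit in IL04_Pool4 (11.8 RPM, 3 reads) and IL08_Pool3 (10.6 RPM, 22 reads). Of these 6 cells, 5 held Gad1 or Gad2, the exception being IL04_Pool4. Without pool 2, 3 of 40 cells (7.5%) held Lhx6. Dlx1 and Lhx6 were together in 3 cells, Dlx1 alone was in 5 and Lhx6 alone in 3. No read of Lhx6 was found in any of the 12 cells of pool 1, the deepest pool, nor in the 10 of pool 5. A count of 0 allows up to 3 reads, which is between 0.0849 and 13.3 RPM in the cells of pool 1.

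Sst was near 0 in most cells, and 2 cells stood far above the rest. Its median was 1.78 RPM, and its highest values were 5288 RPM in IL08_Pool4 and 3275 RPM in IL12_Pool1, which with the third highest, IL08_Pool5 at 739 RPM, made up 84.6% of its summed RPM. Then came IL05_Pool1 at 529 RPM, IL03_Pool2 at 434 RPM, IL08_Pool1 at 317 RPM, IL02_Pool5 at 101 RPM and IL01_Pool2 at 97.5 RPM. The other 6 cells over the limit were between 12.5 and 62.9 RPM, 5 of them in pool 4.

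The pools differed in how Sst reads were spread over cells. Pool 4 had 21253 reads of Sst, of which 99.4% were in IL08_Pool4, and the other 8 cells had between 5 and 21 reads each (median 17.5). In pool 4, IL06_Pool4 had 21 reads among 3257485 and IL04_Pool4 had 16 among 254182, which gives 6.45 and 62.9 RPM, so that like numbers of reads lie on both sides of 10 RPM. In pool 2, IL03_Pool2 held 94.5% of 5701 reads, and the other 8 cells had from 1 to 284. In pool 1, every one of the 12 cells had at least 1 read, and 4571 of the 7486 reads were in IL08_Pool1. Pool 3 had 7 reads of Sst in all, in IL02_Pool3, and pool 5 had 496 reads in 4 of its 10 cells. Of the 14 cells at 10 RPM or more, 5, all of pool 4, had under 1% of the reads of the cell of their pool with the most. This held for 1 of 14 cells for Gad1, 1 of 6 for Lhx6 and 0 for Gad2, Slc32a1 and Dlx1. The 1% mark rises with the reads of the highest cell. In pool 4 that cell had 21136 reads of Sst, but from 519 (Slc32a1) to 1532 (Lhx6) of the other members. These counts therefore do not compare the spread of reads between genes. Whether the reads of cells under 1% came from another cell of the pool was not tested.

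**Figure D2:**
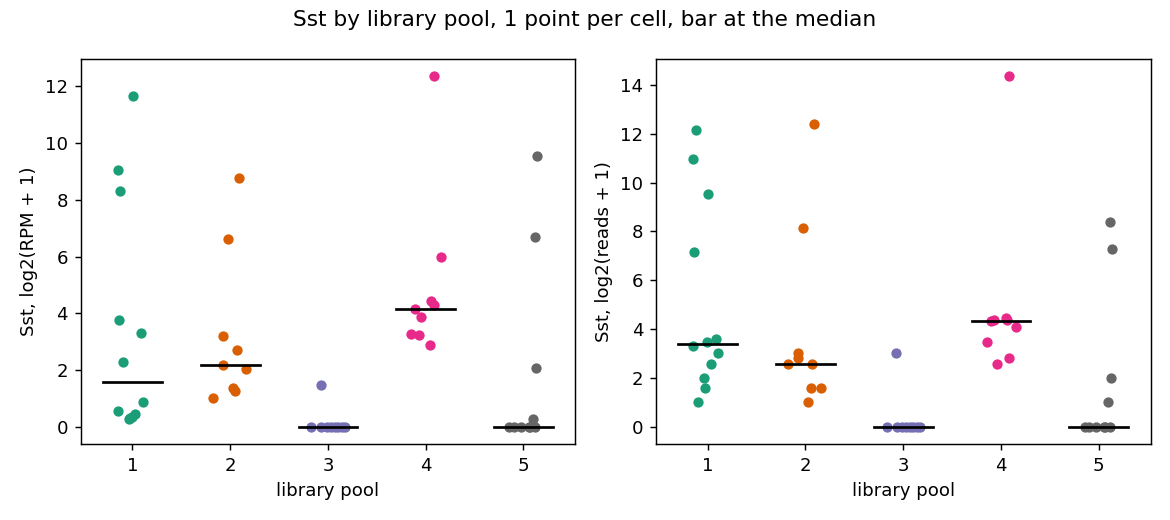
Sst in each cell by library pool, as log2(RPM + 1) on the left and as log2(reads + 1) on the right, with 1 point per cell and a bar at the median of the pool. In pool 4 the cell with 21136 reads stands above 8 cells with 5 to 21 reads, and in pool 3 only 1 of 9 cells has any read.

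Sst and the GAD genes were found in the same cell and each without the other. At 10 RPM, of the 14 cells with Sst, 6 held Gad1 or Gad2 and 8 held neither (16.3% of the 49 cells, interval 7.32 to 29.7%), and 12 cells held Gad1 or Gad2 without Sst (24.5%, 13.3 to 38.9%). Which was more frequent, Sst with or without a GAD gene, depended on the setting. Without pool 4, 4 of 40 cells held both and 4 (10%) held Sst and neither GAD gene, without pool 5 the counts were 6 and 6 of 39 cells, and with the cells thinned to 1 depth they were 7 and 6 of 44 cells. At 1 RPM, 19 cells held both, 9 Sst only and 13 a GAD gene only. A GAD gene was found in 6 of 14 cells with Sst and in 12 of 35 cells without it. At 100 RPM the counts were 2 cells with both, 5 with Sst only and 9 with a GAD gene only. At 1 read, 29 cells had both, 6 had Sst only and 12 a GAD gene only. Where a cell had also to hold at least 1% of the reads of the cell of its pool with the most, a limit chosen after seeing the data, 4 cells held both, 5 held Sst without a GAD gene and 13 a GAD gene without Sst.

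**Figure D3:**
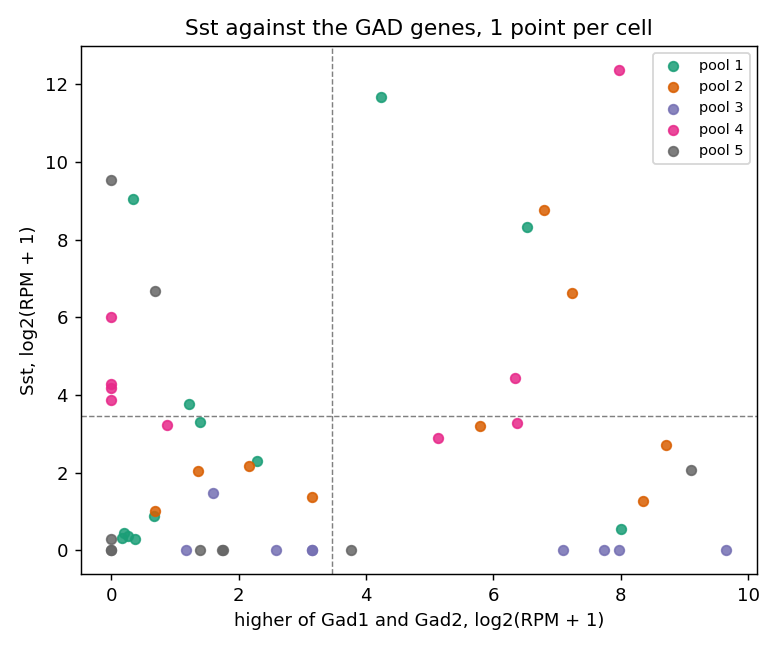
Sst against the higher of Gad1 and Gad2 in each of the 49 cells, both as log2(RPM + 1), coloured by library pool, with dashed lines at 10 RPM. The upper right field holds 6 cells, the upper left 8 and the lower right 12, and IL08_Pool4 is at the top with 5288 RPM of Sst.

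Among the 6 cells with Sst and a GAD gene, IL08_Pool4 was the one in which all 6 members were over 100 RPM. It had 250 RPM of Gad1, 134 RPM of Gad2, 130 RPM of Slc32a1, 147 RPM of Dlx1 and 383 RPM of Lhx6 beside its 5288 RPM of Sst. Its other interneuron genes included Reln (1378 RPM), Grin3a (790 RPM), Calb1 (701 RPM), Maf (1572 RPM), Nxph1 (293 RPM) and Sox6 (172 RPM), which are known from Sst or medial eminence interneurons. Of the 21 listed genes of the interneuron classes it held 10. Cort, Npy, Nos1, Tac1 and Calb2, which are also known from Sst interneurons or from some of them, had 0 reads in it among 3997036. Of the 9 excitatory genes listed, only Nrgn, at 72.1 RPM, reached 10 RPM in it, and Slc17a7 was under 1 RPM.

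IL03_Pool2 also held all 6 members, at lower levels: 434 RPM of Sst, 110 RPM of Gad2, 91.3 RPM of Lhx6, 66.8 RPM of Gad1, 28.7 RPM of Dlx1 and 27.3 RPM of Slc32a1. It held 7 of 9 excitatory genes, 7 of 7 astrocyte genes, 5 of 5 oligodendrocyte lineage genes and 5 of 6 microglial genes at 10 RPM or more as well, with Olig1 at 423 RPM and C1qb at 421 RPM. In IL08_Pool1 (317 RPM of Sst, 91.0 RPM of Gad1) Gad2, Slc32a1, Dlx1 and Lhx6 were under 1 RPM at 14416592 reads, and 6 of 9 excitatory genes were held, Neurod6 at 358 RPM among them. IL01_Pool2 had 150 RPM of Gad1, 99.9 RPM of Gad2 and 97.5 RPM of Sst with 638 RPM of Neurod6. IL03_Pool4 had 79.6 RPM of Gad1 and 20.7 RPM of Sst, the latter from 20 reads, in a cell of which 21.6% of all reads were of hemoglobin genes.

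IL12_Pool1 was the second highest cell for Sst and had little of the other members. Its 3275 RPM of Sst were 738 of 225363 reads, Gad1 was at 17.7 RPM (4 reads), and Gad2, Slc32a1, Dlx1 and Lhx6 had 0 reads, which allows up to 13.3 RPM each at this depth. It held 6 of 9 excitatory genes. Among interneuron genes, Maf was at 226 RPM and Dlx6os1 at 26.6 RPM, and Calb1 at 4.44 RPM was a single read.

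Of the 8 cells with Sst and neither GAD gene, 3 had over 100 RPM of Sst. IL08_Pool5 had 739 RPM (155 reads) with 0 reads of Gad1, Gad2, Dlx1 and Lhx6, but with 209850 reads it was the shallowest cell, and 0 reads allow up to 14.3 RPM. It held 2 of 7 astrocyte genes (Slc1a2 at 915 RPM, Slc1a3 at 667 RPM) and 1 of 6 microglial genes (C1qb at 362 RPM). IL05_Pool1 had 529 RPM (1988 reads) at 3757627 reads, with 1 read of Gad1, none of Gad2, Slc32a1 and Lhx6 and 4 of Dlx1. At this depth a GAD level near 10 RPM in its library would have been seen. Whether RNA of a GAD gene was lost before sequencing was not tested, and depth does not show it. IL05_Pool1 held 6 of 9 excitatory genes, Slc17a6 at 305 RPM and Neurod6 at 156 RPM among them. It also held Calb2 (751 RPM), Calb1 (422 RPM), Pvalb (273 RPM) and Tac1 (184 RPM), which mark classes of cortical interneurons though not only these. IL02_Pool5 had 101 RPM of Sst (337 reads) and 96.2 RPM of Slc32a1 (320 reads), with 2 reads of Gad2 and none of Gad1. It held 8 of 9 excitatory genes and 6 of 6 microglial genes.

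The remaining 5 of these cells had between 12.5 and 62.9 RPM of Sst. IL10_Pool1 had 141 reads of Sst among 11295087, with 15 reads of Gad1 and 9 of Gad2. IL01_Pool4, IL04_Pool4, IL05_Pool4 and IL09_Pool4 had from 5 to 19 reads of Sst, in the pool of the cell with 21136, and 0 reads of Gad1, Gad2 and Slc32a1. Excitatory genes were held by all 5, from 3 of 9 in IL04_Pool4 to 7 of 9 in IL10_Pool1, with Neurod6 at 1458 RPM in IL01_Pool4 and 1197 RPM in IL09_Pool4, and Neurod2 at 411 RPM in IL05_Pool4. All 8 cells with Sst and neither GAD gene therefore held at least 3 excitatory genes, as did 41 of all 49 cells.

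In the 12 cells with Gad1 or Gad2 and no Sst, the GAD genes reached their highest levels of all cells. In IL03_Pool3 (559 RPM of Gad1, 807 RPM of Gad2), Sst had 0 reads among 6867017, which allows up to 0.437 RPM. In IL01_Pool1 (152 and 255 RPM) it had 9 reads among 19533497, or 0.461 RPM, and in IL06_Pool2 (297 and 324 RPM) 2 reads, or 1.42 RPM. These values are well under 10 RPM at depths that would have shown that level in the library. Whether RNA of Sst was lost before sequencing was not tested. IL07_Pool2, IL10_Pool5 and IL07_Pool3 had 5.53, 3.15 and 0 RPM of Sst. IL06_Pool3 (213 RPM of Gad1) and IL08_Pool3 (135 RPM of Gad2) had no Sst read and held 4 of 9 excitatory genes each, and IL08_Pool3 also held 6 of 6 microglial genes. The other 4, IL02_Pool4, IL05_Pool2, IL06_Pool4 and IL03_Pool5, had between 12.6 and 81.5 RPM of their GAD gene. Sst was just under the limit in 3 of these, at 8.76 RPM (10 reads), 8.17 RPM (6 reads) and 6.45 RPM (21 reads), and at 0 in IL03_Pool5.

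At least 3 of the 6 members were held by 9 cells, namely IL03_Pool2 and IL08_Pool4 with 6, IL06_Pool2 with 5, IL01_Pool1, IL03_Pool3 and IL07_Pool2 with 4 and IL01_Pool2, IL07_Pool3 and IL10_Pool5 with 3. In 6 of the 9 cells at most 2 of 9 excitatory genes were held and Slc17a7 was at 0 to 2.41 RPM. The exceptions were IL01_Pool2 and IL03_Pool3 with 8 of 9 excitatory genes and IL03_Pool2 with 7. Of other genes of GABA handling, Abat, whose product breaks GABA down, reached 10 RPM in 20 cells and was highest in IL10_Pool5 (1183 RPM). Gphn, which encodes the scaffold gephyrin of inhibitory synapses, reached it in 28 cells, and Slc6a13 is not in the table.

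The 9 cells differed from each other in the genes of interneuron classes. Vip, a peptide of interneurons from the caudal eminence, was 8113 RPM in IL10_Pool5, 6203 RPM in IL07_Pool3 and 1475 RPM in IL01_Pool1 and at most 19.5 RPM in the other 6, and Prox1, a transcription factor of those cells, was 723, 328 and 422 RPM in the same 3 cells. Lhx6 had 0 reads in these 3, as in every cell of pools 1 and 5 and in 7 of the 9 cells of pool 3. In IL03_Pool3, Npy was 3671 RPM and Lamp5 441 RPM, genes known from neurogliaform cells, with Prox1 at 146 RPM and no read of Lhx6 or Sst. Of other listed class genes, Reln also had no read in IL03_Pool3, and Nxph1 was 186 RPM in it. The 4 of the 9 cells that held Lhx6, IL06_Pool2, IL07_Pool2, IL08_Pool4 and IL03_Pool2, had 14.2, 364, 172 and 5.31 RPM of Sox6 and 397, 908, 293 and 37.1 RPM of Nxph1. Of these 4 cells, IL08_Pool4 and IL03_Pool2 had Sst over 10 RPM, and Pvalb was at 0 RPM in all 4.

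**Figure D4:**
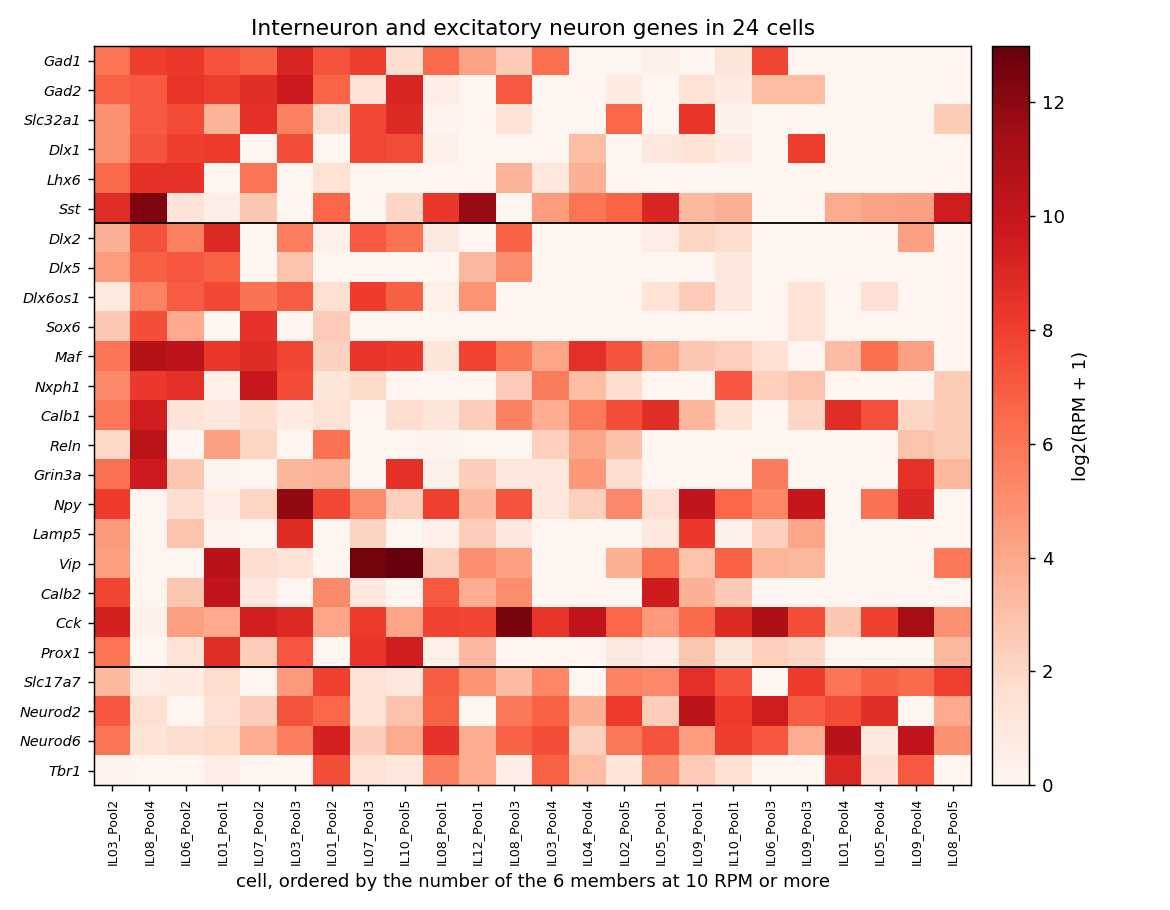
Level of the 6 members, of other interneuron genes and of 4 excitatory genes, as log2(RPM + 1) in colour, in the 24 cells in which a member reached 100 RPM or Sst reached 10 RPM, ordered by how many of the 6 members reached 10 RPM. The first 9 cells hold at least 3 members, and IL12_Pool1, IL08_Pool5 and IL05_Pool1, with Sst from 529 to 3275 RPM, lie outside them.

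The list for the interneuron lineage has 23 genes, all of transcription factors apart from Dlx6os1, a transcript of the Dlx5 and Dlx6 locus. Of these, 17 are in the table, and Dlx6, Nkx2-1, Sp9, Gsx2 and Lhx8 are among those that are not. Dlx2 reached 10 RPM in 10 cells, Dlx5 in 5, Dlx6os1 in 9 and Sox6 in 4. Satb1 (37 cells), Nr2f1 (41) and Zeb2 (45) reached it in most cells. Among genes known from the Sst class, Grin3a was held by 12 cells and Reln by 6, while Cort, a peptide close to somatostatin, was held by 2 cells, IL09_Pool5 (310 RPM) and IL03_Pool4 (151 RPM). Calb1 was held by 13 cells, of which 8 also held Sst, which was held by 14 of all 49 cells. The 8 include IL01_Pool4, IL03_Pool4, IL04_Pool4 and IL05_Pool4, in which Sst had under 1% of the reads of IL08_Pool4.

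Across the 49 cells, Pearson's r was higher in each pair among the 5 members other than Sst than in any pair with Sst. These correlations of log2(RPM + 1) describe cells that share library pools and differ in depth, and are not tested. Pearson's r was 0.58 between Gad1 and Gad2 (Spearman's rho 0.49), 0.57 between Gad2 and Dlx1 (rho 0.38), and from 0.34 to 0.53 for the other pairs among the 5. With Sst it was 0.18 for Gad1, 0.01 for Gad2, 0.04 for Slc32a1, -0.01 for Dlx1 and 0.33 for Lhx6, the last close to the 0.34 of Dlx1 with Lhx6. By Spearman's rho the order was not kept, since Lhx6 and Sst had 0.30. Gad1 had less with Dlx1 (0.29) and Slc32a1 (0.26), Slc32a1 with Lhx6 (0.21) and Dlx1 (0.18), and Dlx1 with Lhx6 (0.04). With a pseudocount of 0.1, Pearson's r did not keep it either, at 0.33 for Lhx6 and Sst and 0.23 for Dlx1 and Lhx6. With a pseudocount of 10 it was kept, at 0.36 and 0.41 for these pairs. The correlation of each member with log10 of the reads per cell was between -0.05 and 0.14.

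Among 8634 genes with 10 RPM in at least 5 cells, the nearest 3 of each member by Pearson's r included the following. For Gad1 they included Dlx6os1 (0.63) and F3 (0.59), for Gad2 Rbms3 (0.73) and Neurl1a (0.66), and for Slc32a1 Rbms3 (0.72) and Erbb4 (0.63). Dlx1 was nearest to Dlx6os1 (0.73), Dlx2 (0.72) and Rcan3 (0.71), and Lhx6 to Neurl1a (0.75) and Nxph1 (0.70). Dlx2 lies beside Dlx1 in the genome, and Dlx6os1 is a transcript of the Dlx5 and Dlx6 locus. The values for Sst were lower, at 0.53 for Calb1, 0.52 for Grik3 and 0.49 for Id4, and with a pseudocount of 10 none of these 3 remained among the nearest 3. At that pseudocount 1 of 3 remained for Gad1 and 1 of 3 for Dlx1. For Slc32a1, 1 of 3 remained with a pseudocount of 0.1. The other repeats kept 2 or 3. Among the same 8634 genes, Gad2 ranked 8 for Gad1, and Sst ranked 1946.

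Genes of other cells were found in the collected neurons and vary between the cells described. Over the 49 cells the summed level of the 7 listed astrocyte genes ranged from 0 to 3955 RPM, that of the 5 oligodendrocyte lineage genes from 0 to 3905 RPM, that of the 6 microglial genes from 0 to 4244 RPM and that of the 9 excitatory genes from 77.1 to 9215 RPM. The share of reads on hemoglobin genes had a median of 0.0894% and reached 68.8%. Of the 8 cells with Sst and neither GAD gene, 2 held all 6 microglial genes. Of all other cells, only IL08_Pool3, with Gad2 and no Sst, did so. Of the 9 cells with at least 3 members IL03_Pool2 held 5 and the other 8 at most 2. The part of such genes in the co-occurrence of Sst with excitatory genes was not tested.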

How the data were processed

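Per the labels and the study's methods, single FT neurons were collected from slices, amplification used SMART-Seq v4 chemistry for 3′ ends and library construction Nextera XT, cells of different days were pooled, and single-end reads of 100 bases were aligned with STAR to GRCm38 (mm10 in the processing notes) and counted with HTSeq. The annotation, tool versions and strand setting are not given in the sources used here. The authors deposited RPM, without log transformation, for 9020 genes and 49 cells. No UMIs were used. The intervals are for numbers of cells, not of reads, and cover counting error only.

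Each value was divided by the worth of 1 read in its cell, and 100% of the values above 0 came within 0.01 of a whole read. Since all cells are of 1 condition, no count model was fitted. A cell held a gene at 10 RPM or more, correlations used a pseudocount of 1, and intervals are exact at 95%. The genes named are the 6 members, genes of the marker lists and the 3 genes most like each member, some of which are not reported here. Cells described singly have a member at 100 RPM or Sst at 10 RPM. Promoter sequences are RefSeq's. The members and lists were chosen with earlier results of these data known. Alternatives were limits of 1 read, 1 RPM and 100 RPM, thinning, totals without hemoglobin and mitochondrial genes, TMM factors of edgeR 4.0.16, each pool left out, pseudocounts of 0.1 and 10 and, chosen after seeing the data, the limit by the highest cell of a pool. The step that recovers reads was tested on simulated data. The software was R 4.3.3 and Python 3.11.15 with scipy 1.17.1, pandas 2.3.3, matplotlib 3.10.9 and numpy 2.4.6. Radial positions of the cells were not used here.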

Additional observations from a re-analysis of the deposited data

How the results depend on the processing

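The share of cells that hold a gene moved most with the limit. At 1 read in place of 10 RPM it was 67.3% for Gad1, 69.4% for Gad2, 73.5% for Slc32a1, 51.0% for Dlx1, 32.7% for Lhx6, 71.4% for Sst and 59.2% for Sst with Gad1 or Gad2. At 1 RPM it was 46.9% for Gad1, 51.0% for Gad2, 51.0% for Slc32a1, 36.7% for Dlx1, 57.1% for Sst and 38.8% for Sst with Gad1 or Gad2. At 100 RPM it was 16.3% for Gad1, 12.2% for Slc32a1, 4.08% for Lhx6, 14.3% for Sst and 4.08% for Sst with Gad1 or Gad2. The other 90 shares under an alternative stayed within the interval of the value at 10 RPM. These include thinning to 358412 reads, for which 44 cells were kept and 5 shallower cells left out, totals without hemoglobin and mitochondrial genes, TMM factors, the limit by the highest cell of a pool and each pool left out. The intervals are wide, so staying within them says little about stability. For Sst the interval was 16.6 to 43.3%. A fall from 14 to 9 cells (18.4%), with the limit by the highest cell of a pool, lay within it. Without a pool, the share with Sst and neither GAD gene ranged from 10 to 20%, that with a GAD gene and no Sst from 20 to 29.7%, and that with Sst from 20 to 35%, with the lowest of the first and the last without pool 4. Of 45 correlations under an alternative, 14 moved by more than 0.1, at most by 0.307. Of 18 repeats of the lists of nearest genes, 14 shared 2 or 3 of 3 genes with the list given. No paired analysis was possible because the study has only 1 group. In the shallowest cell, 0 reads allow up to 14.3 RPM, so in cells of that depth the absence of a member at 10 RPM was not detectable.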
